A study of Mus musculus with 100 samples.

Results

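Antioxidant and oxidative stress genes of the injured mouse knee were examined as a set of 10 genes, chosen by name from the 17310 genes in the count table. Duox1 and Cybb produce reactive oxygen species, Sod2 and Sod3 remove superoxide, and Hmox1, Nqo1, Txnrd1, Gclc, Slc7a11 and Akr1b8 belong to the detoxifying and reducing systems. All 10 were in the table, and every one had at least 1 read in each of 100 libraries. The libraries came from whole knee joints of mice of 3 inbred strains, all labelled 10 weeks old, which the study's methods give as the age at injury. MRL/MpJ is labelled not susceptible to post-traumatic osteoarthritis, C57BL/6 moderately susceptible and STR/ort highly susceptible. The right knee was injured by a single non-invasive compressive load of 10 to 12 N, which ruptures the anterior cruciate ligament (ACL), and the uninjured contralateral knee served as control. Joints were taken at 0-day (before injury) and, injured and uninjured, 1-day, 1-week and 2-weeks after injury, which gave 21 groups of 4 or 5 libraries.

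Reactive oxygen species are made on purpose by NADPH oxidases, which pass electrons to oxygen, and as a by-product of mitochondrial respiration. Superoxide dismutases turn superoxide into hydrogen peroxide, which catalase, glutathione peroxidases and peroxiredoxins remove. The transcription factor NRF2 binds antioxidant response elements and raises genes of glutathione and thioredoxin metabolism, and in joints reactive oxygen species are known both as signals and as agents of matrix damage.

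The joints were cut at the femoral and tibial edges with traces of soft tissue left on, so that marrow, muscle, bone, cartilage and synovium share each library. In such bulk RNA, fewer cells of a type and less RNA per cell cannot be told apart. Total counts ran from 6182016 to 20986027 per library. The 70 libraries of 0-day, 1-day and 1-week carry batch label 1 and the 30 libraries of 2-weeks label 2, so a difference of 2-weeks from an earlier time cannot be told apart from one of batch, and levels were tested only within a time or within batch 1. Levels are CPM, the reads of a gene per 1000000 reads of the scaled library. A gene was called when its edgeR quasi-likelihood test had an adjusted p under 0.05 over all genes and its change exceeded 1.5-fold. Nothing in the labels ties libraries to separate cages or litters, so p-values measure the spread between these joints.

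Promoters of 7 members, 9 windows in all, were read from RefSeq (GRCm38.p6) as 250 bases before to 50 bases after a start site and searched on both strands for the core antioxidant response element TGACNNNGC. Hmox1, Sod3 and Gclc had no entry. A single window held the motif, 1 of the 3 of Txnrd1 (thioredoxin reductase 1, which recycles thioredoxin), where it began 92 bases before the start site and is written in capitals below, on the reverse strand. Of 32851 promoters of the same length in the table, 4071 (12.4%) held it. The windows of Akr1b8 and Duox1, genes that were called higher after injury, are shown beside it, and neither held these letters. Such a match is a description of the sequence.
Txnrd1 promoter, chr10:82858956-82859255 (+): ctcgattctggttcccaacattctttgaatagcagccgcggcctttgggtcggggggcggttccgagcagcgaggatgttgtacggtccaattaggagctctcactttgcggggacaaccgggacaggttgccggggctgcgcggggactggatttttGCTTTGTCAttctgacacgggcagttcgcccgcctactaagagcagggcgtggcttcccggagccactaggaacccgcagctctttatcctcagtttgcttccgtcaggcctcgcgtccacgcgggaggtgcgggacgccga
Akr1b8 promoter, chr6:34353896-34354195 (+): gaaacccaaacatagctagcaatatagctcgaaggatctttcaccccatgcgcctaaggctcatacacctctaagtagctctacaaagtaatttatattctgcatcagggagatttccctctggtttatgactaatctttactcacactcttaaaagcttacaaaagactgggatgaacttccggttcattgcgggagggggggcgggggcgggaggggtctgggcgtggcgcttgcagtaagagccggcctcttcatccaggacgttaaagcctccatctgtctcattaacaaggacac
Duox1 promoter, chr2:122315422-122315721 (+): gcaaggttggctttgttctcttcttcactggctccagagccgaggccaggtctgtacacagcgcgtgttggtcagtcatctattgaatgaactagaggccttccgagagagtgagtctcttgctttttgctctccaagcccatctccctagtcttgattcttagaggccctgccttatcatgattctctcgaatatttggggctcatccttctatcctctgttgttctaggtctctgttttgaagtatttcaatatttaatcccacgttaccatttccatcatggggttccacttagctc

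Divided by exon length, the levels at 0-day spanned a wide range. Cybb, the catalytic subunit of the phagocyte NADPH oxidase, was highest, at 170 CPM per kb in MRL/MpJ, 170 in C57BL/6 and 146 in STR/ort. Duox1, a dual oxidase that releases hydrogen peroxide, was lowest, at 0.121, 0.216 and 0.507 CPM per kb in the same order. Slc7a11, the cystine importer that feeds glutathione synthesis, was next lowest in MRL/MpJ, C57BL/6 and STR/ort, at 0.739, 0.645 and 0.594 CPM per kb. Over the 21 group means, Sod3 varied most, by 19.6-fold between its lowest and highest group, followed by Duox1 (15.6-fold) and Akr1b8 (9.12-fold), ranges that span both batches. The other 7 members varied between 2.11-fold for Txnrd1 and 3.49-fold for Hmox1. Duox1 rested on 1 to 122 reads per library, and its values carry the largest counting error of the set.

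The question of what injury changed was asked within each strain, injured against contralateral joints. Sod3, Akr1b8, Duox1 and Hmox1 were called higher after injury in at least 1 comparison, and no member was called lower. Of 30 tests of a member in a strain, 7 were called higher at 1-day, against a background of 2.47% of all gene tests at that time called higher. At 1-week 8 of 30 were called (background 4.45%) and at 2-weeks 9 of 30 (background 2.79%). The median log2 change over the 10 members stayed between -0.09 and 0.25 in the 9 comparisons, and that over all genes between -0.03 and 0.01. The members moved in both directions, and the set as a whole was not tested.

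Sod3, the extracellular superoxide dismutase, was called higher in the injured joint of every strain at every time. In MRL/MpJ at 1-day, the injured joints had 137, 167, 173, 173 and 199 CPM, and the uninjured ones 44.2, 52.8, 64.2, 65.5 and 66.7 CPM. In C57BL/6 the injured joints had 228, 330, 342, 389 and 528 CPM, and the uninjured ones 89.7, 91.7, 100, 125 and 128 CPM. In STR/ort the injured joints had 339, 354, 394, 414 and 499 CPM, and the uninjured ones 173, 191, 233, 253 and 290 CPM. The injured and uninjured joints did not overlap in any strain, and the uninjured STR/ort joints already reached the level of injured MRL/MpJ joints. The fold change was 2.93 in MRL/MpJ (log2 1.55, SE 0.17, adjusted p = 2.95e-07), 3.39 in C57BL/6 (log2 1.76, SE 0.17, adjusted p = 3.97e-09) and 1.73 in STR/ort (log2 0.79, SE 0.16, adjusted p = 0.00128). The rise in STR/ort was smaller than that in C57BL/6 by 0.97 on the log2 scale (SE 0.23, adjusted p = 0.0108 for the interaction). The difference from MRL/MpJ was -0.76 (SE 0.23) and did not pass (adjusted p = 0.301).

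At 1-week Sod3 was 2.52-fold higher in MRL/MpJ (135 ± 11.4 against 55 ± 6.93 CPM, SD, n = 5 and 4) and 2.94-fold higher in C57BL/6 (146 ± 12 against 50.3 ± 10.4 CPM, SD, n = 5 each). In STR/ort the injured joints had 391, 398, 552, 554 and 588 CPM and the uninjured ones 179, 323, 329 and 434 CPM, the single pair of groups that overlapped. The STR/ort change was 1.57-fold (adjusted p = 0.00498). It fell under 1.5-fold without uninjured replicate 3, the lowest library (log2 0.45), or without injured replicate 1 (log2 0.58), and had an adjusted p of 0.0607 when only these groups were fitted. The interaction at 1-week was -0.68 against MRL/MpJ and -0.91 against C57BL/6 (adjusted p = 0.17 and 0.0606). Without uninjured STR/ort replicate 3 both passed, at -0.88 and -1.10 (adjusted p = 0.0152 and 0.00105), and the latter also did without uninjured C57BL/6 replicate 5 (-0.98, adjusted p = 0.0406) and with the replicate block (-0.92, adjusted p = 0.00723). At 2-weeks the folds were 1.70, 2.52 and 2.46 in MRL/MpJ, C57BL/6 and STR/ort (adjusted p = 0.0071, 2.1e-06 and 2.33e-07). Its highest group mean was 497 ± 94.3 CPM, in STR/ort injured joints at 1-week.

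Akr1b8, an aldo-keto reductase that reduces aldehydes, followed Sod3 in being called higher in all 9 injury comparisons, and its injured and uninjured libraries did not overlap in any of them. At 1-day the injured joints had 5.22, 6.04, 6.71, 7.43 and 7.7 CPM in MRL/MpJ, where the uninjured ones lay between 2.55 and 2.9 CPM. In C57BL/6 they had 10.8, 12.5, 14.8, 17.2 and 19.2 CPM against 3.43 to 6.4 CPM. In STR/ort they had 16.5, 16.6, 17.8, 18 and 18.5 CPM against 6.35 to 11.6 CPM. The fold changes were 2.43, 3.04 and 1.93 (adjusted p = 2.47e-05, 6.38e-09 and 2.69e-05). At 1-week they were 2.40, 2.65 and 2.19, and at 2-weeks 1.58, 1.77 and 2.31 in MRL/MpJ, C57BL/6 and STR/ort. In MRL/MpJ at 2-weeks the lowest injured joint (3.44 CPM) lay close to the highest uninjured one (3.39 CPM), and the call had an adjusted p of 0.0516 when only these groups were fitted. Akr1b8 has close relatives in the genome, among them Akr1b10 and Akr1b7. How reads shared between them were counted is not given in the sources used here, so the value of each is uncertain to that extent.

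**Figure D1:**
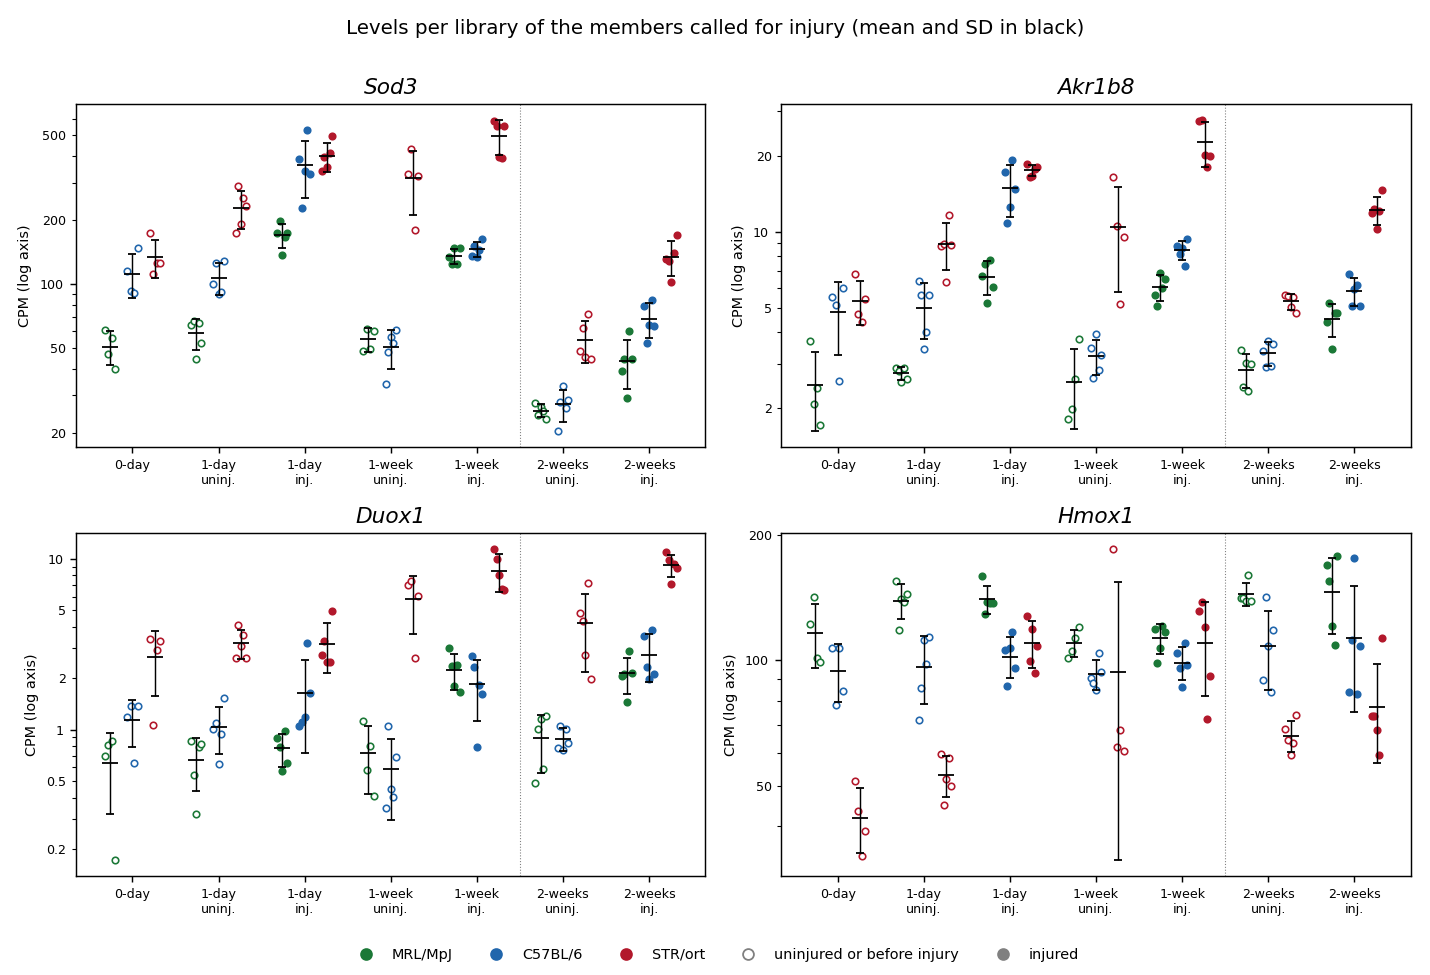
Levels of Sod3, Akr1b8, Duox1 and Hmox1 in each library, in CPM on a log axis, by time and joint for the 3 strains. Filled points are injured joints, open points uninjured or 0-day joints, and black bars the mean and SD of 4 or 5 libraries. The dotted line separates the 2-weeks libraries, which form their own batch. Filled points lie above open ones of the same strain and time for Akr1b8 throughout, and for Sod3 throughout but in STR/ort at 1-week.

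Duox1 was called higher after injury in MRL/MpJ and C57BL/6 at 1-week and in all strains at 2-weeks. Its injury effect was not compared between times by a test. At 1-day its log2 change was 0.21 in MRL/MpJ, 0.74 in C57BL/6 and -0.03 in STR/ort, and the adjusted p was 0.87, 0.0823 and 0.967. By the unadjusted p, 1 of these 3 tests passed 0.05, and DESeq2 called 0 of them. The C57BL/6 value passed without injured replicate 2 (adjusted p = 0.0494) or without uninjured replicate 5 (adjusted p = 0.0473). At 1-week the injured MRL/MpJ joints had 1.66, 1.8, 2.35, 2.39 and 3 CPM, and the uninjured ones 0.408, 0.583, 0.806 and 1.13 CPM. The C57BL/6 joints had 0.786, 1.62, 1.82, 2.31 and 2.68 CPM when injured and 0.346, 0.405, 0.447, 0.688 and 1.05 CPM when not. The MRL/MpJ groups did not overlap, and 1 injured C57BL/6 joint lay within the uninjured range. The folds were 3.11 in MRL/MpJ (SE 0.40 on the log2 scale, adjusted p = 0.00978) and 3.27 in C57BL/6 (SE 0.39, adjusted p = 0.00285). In STR/ort the change at 1-week was 0.57 on the log2 scale (adjusted p = 0.0953), with 8.5 ± 2.11 CPM in injured and 5.78 ± 2.17 CPM in uninjured joints (SD, n = 5 and 4). With the replicate number as a block it was 0.68 and was called (adjusted p = 0.0159). At that time only this number marks the STR/ort knees as pairs.

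At 2-weeks Duox1 was called higher after injury in all 3 strains. The injured STR/ort joints had 7.13, 8.82, 9.27, 9.83 and 10.9 CPM, and the uninjured ones 1.98, 2.73, 4.33, 4.81 and 7.22 CPM, a 2.16-fold rise (adjusted p = 0.00032) with 1 uninjured joint inside the injured range. In C57BL/6 the rise was 3.15-fold (adjusted p = 0.00102) and in MRL/MpJ 2.38-fold (adjusted p = 0.041). In both strains the injured and uninjured joints did not overlap. The MRL/MpJ call at 2-weeks was lost without any one of 8 of its 10 libraries (adjusted p 0.0525 to 0.143) and under housekeeping scaling (log2 1.26, adjusted p = 0.0525). The log2 change stayed between 1.12 and 1.36 without those libraries, against 1.25 with all. The call at 1-week was lost without uninjured replicate 4 (log2 1.43 against 1.64, adjusted p = 0.0519). Within batch 1, Duox1 in injured joints rose between 1-day and 1-week by 2.89-fold in MRL/MpJ (adjusted p = 0.000203) and by 2.68-fold in STR/ort (adjusted p = 0.000172). In C57BL/6 the log2 difference was 0.08 (adjusted p = 0.911), and the mean of its uninjured joints was 1.04 CPM at 1-day and 0.587 at 1-week. The uninjured means over the same interval were 3.2 and 5.78 CPM in STR/ort, where the contralateral knee was also higher at 1-week, and 0.666 and 0.732 CPM in MRL/MpJ.

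Hmox1, the enzyme that breaks down haem, was called higher after injury in STR/ort at 1-day. The injured STR/ort joints had 93.4, 99.5, 108, 119 and 128 CPM, and the uninjured ones 44.9, 49.9, 51.8, 58.4 and 59.4 CPM. Every injured joint lay above every uninjured one, and the rise was 2.05-fold (log2 1.03, SE 0.11, adjusted p = 3.04e-08). In MRL/MpJ the injured joints had 129, 137, 137, 138 and 159 CPM and the uninjured ones 118, 138, 140, 144 and 155 CPM. In C57BL/6 the values were 86.8, 95.7, 106, 107 and 117 CPM against 71.9, 85.8, 97.7, 112 and 114 CPM. Injured and uninjured joints of both strains overlapped, and the log2 changes were 0.03 (SE 0.10, adjusted p = 0.946) and 0.09 (SE 0.10, adjusted p = 0.629). The STR/ort change exceeded that of MRL/MpJ by 1.01 (SE 0.15, adjusted p = 0.00224) and that of C57BL/6 by 0.95 (SE 0.15, adjusted p = 0.000143). Of the 9 strain differences in injury response that were tested over 3 times, these and that of Sod3 were the member calls, 3 of 90 against a background of 0.557%. Among injured joints at 1-day, STR/ort had log2 differences of 0.09 from C57BL/6 and -0.34 from MRL/MpJ, neither of which was called.

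At 1-week the Hmox1 result in STR/ort turned on 1 library. The injured joints had 72.2, 91.5, 120, 131 and 138 CPM, and the uninjured ones 60.5, 62, 67.9 and 185 CPM, the last being replicate 1. With all 4 uninjured libraries the log2 change was 0.23 (SE 0.21, adjusted p = 0.49). Without replicate 1 it was 0.79 (SE 0.14, adjusted p = 0.000101), and all injured joints lay above the remaining 3. The interactions were then 0.72 against MRL/MpJ and 0.67 against C57BL/6 and did not pass (adjusted p = 0.0508 and 0.0851). At 2-weeks the log2 change in STR/ort was 0.24 (adjusted p = 0.437). In the 6 comparisons of MRL/MpJ and C57BL/6, Hmox1 was called in 0 by edgeR, 0 by DESeq2 and 0 by an unadjusted p under 0.05.

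The remaining 6 members, Cybb, Sod2, Nqo1, Txnrd1, Gclc and Slc7a11, were called in 0 of 54 injury tests by edgeR and in 0 by DESeq2. By the unadjusted p, 22 of the 54 passed 0.05, and 10 had an adjusted p under 0.05 with a change under 1.5-fold. Txnrd1 accounted for 4 of these 10, all with higher values after injury. At 1-day its injured joints had 177, 187, 196, 196 and 234 CPM in MRL/MpJ against 150, 160, 160, 177 and 178 CPM in uninjured ones (log2 0.28, adjusted p = 0.0201). In STR/ort they had 147, 149, 155, 163 and 167 CPM against 104, 105, 115, 119 and 124 CPM (log2 0.44, adjusted p = 0.000105). The STR/ort groups did not overlap, and the MRL/MpJ groups overlapped slightly. In C57BL/6 the log2 difference was 0.26 (adjusted p = 0.0118), and in STR/ort at 1-week 0.32 (adjusted p = 0.00494). The other 6 were lower after injury. Gclc, the catalytic subunit of the enzyme that starts glutathione synthesis, had log2 differences in C57BL/6 of -0.42 at 1-day (adjusted p = 0.000189) and -0.32 at 2-weeks (adjusted p = 0.0232). Cybb had -0.25 in C57BL/6 at 1-day (adjusted p = 0.045) and -0.41 in STR/ort at 1-week (adjusted p = 0.00775). The summed level of 8 marrow neutrophil markers was also lower in both, at 8750 to 11100 CPM in injured and 12400 to 15400 in uninjured C57BL/6 joints and at 7350 to 10700 against 12100 to 16500 CPM in STR/ort. The part of these cells in the Cybb changes was not tested. Sod2, the mitochondrial superoxide dismutase, had -0.50 (adjusted p = 0.00928) and Slc7a11 -0.39 (adjusted p = 0.039) in C57BL/6 at 1-week. Nqo1, a quinone reductase and a usual readout of NRF2 activity, had log2 changes between -0.23 and 0.13.

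**Figure D2:**
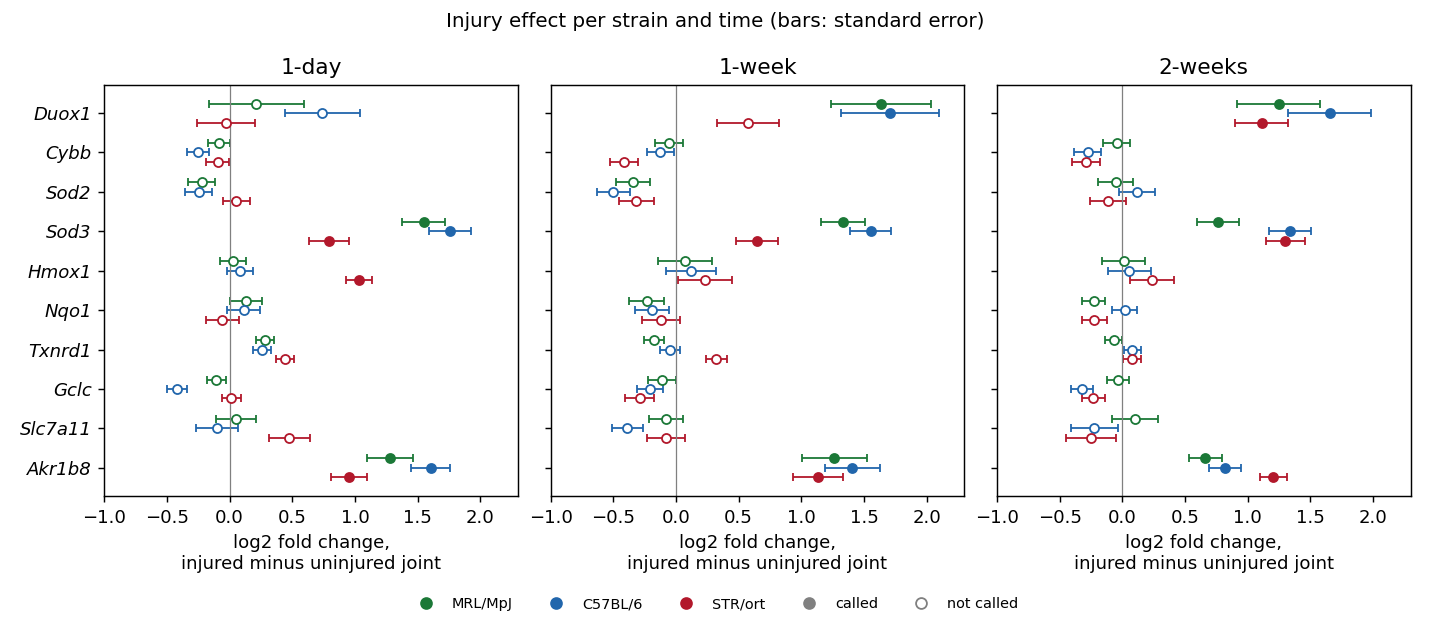
Log2 fold change of each member between injured and uninjured joints, by strain, in a panel for each time. Points are estimates of the edgeR fit with bars of 1 standard error, and filled points passed both the adjusted p and the 1.5-fold threshold. Sod3 and Akr1b8 are filled in all 9 comparisons, Duox1 in MRL/MpJ and C57BL/6 at 1-week and in all strains at 2-weeks, and Hmox1 in STR/ort at 1-day.

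Markers of other tissues in the joint moved with some of these changes. Of 4 synovial fibroblast markers (Prg4, Pdgfra, Pdpn, Thy1), between 1 and 4 were called higher in each of the 9 injury comparisons and none lower. Their summed level had a median of 3240 CPM in MRL/MpJ injured joints at 1-day (range 2430 to 4230) and 1980 CPM in uninjured ones (1390 to 2280). In STR/ort at 1-day, where Sod3 and Hmox1 rose, 1 of the 4 was called and the medians were 8090 and 7700 CPM. Of 6 fast muscle markers, 4 were called lower in the injured STR/ort joints at 1-day and 6 at 1-week. Erythroid markers, in whose cells haem is made, had medians of 1930 CPM in both injured and uninjured STR/ort joints at 1-day, and none of the 5 listed was called. Of 7 myeloid markers, 1 was called higher in that comparison. In STR/ort at 2-weeks, where Duox1 rose, 4 of 5 cartilage and 1 of 5 bone markers were called higher. The cartilage sum was 3590 to 5230 CPM in injured and 2040 to 3050 in uninjured joints, and the bone sum 13500 to 17800 against 8600 to 11800 CPM, with no overlap. In the other 8 comparisons both sums overlapped between injured and uninjured joints. The part of these tissues in the members' changes was not tested. Over all libraries, Prg4 had a median of 2170 CPM and the other synovial markers 19.8 to 105. Col1a1 had a median of 8020 CPM and the other bone markers 31.3 to 929. Here and below, the synovial sum therefore follows mostly Prg4 and the bone sum mostly Col1a1.

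**Figure D3:**
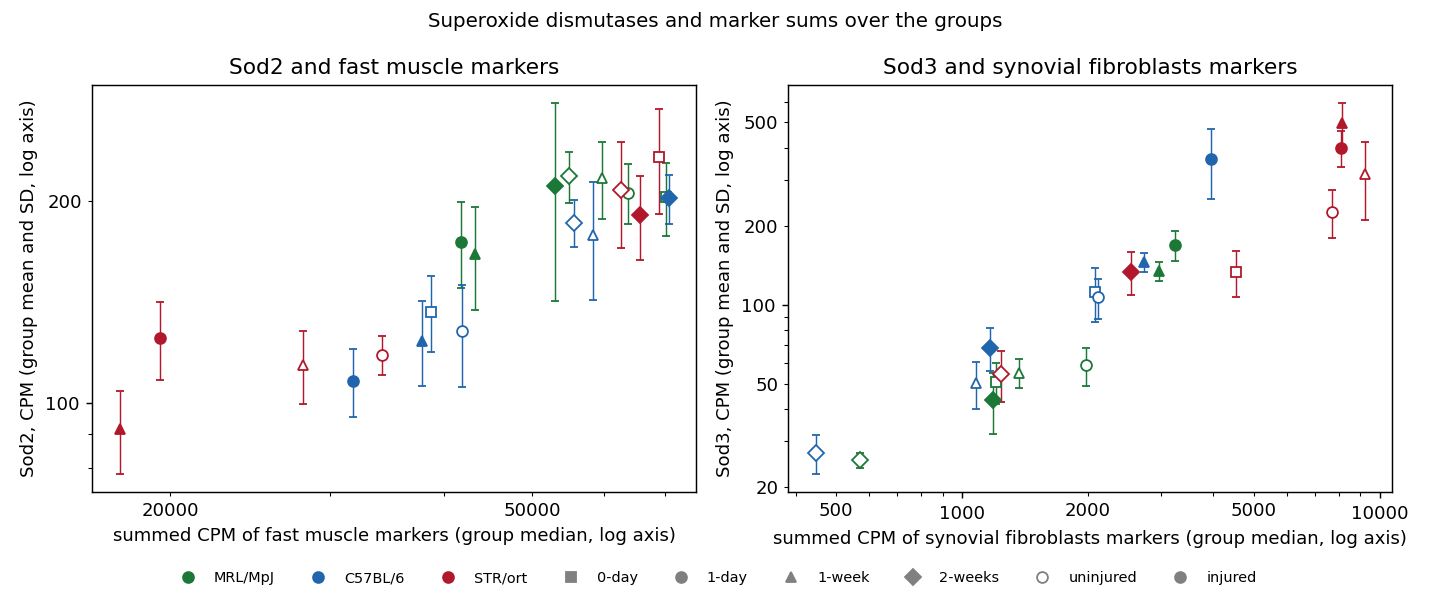
Group means of Sod2 (left) and Sod3 (right) in CPM with SD, against the group median of the summed CPM of fast muscle markers (left) and synovial fibroblast markers (right), all axes logarithmic. Each point is 1 of 21 groups, those of both batches, coloured by strain, with filled symbols for injured joints. Most of the synovial sum is Prg4. Sod2 is lowest (91.4 CPM) where the muscle sum is lowest (17600 CPM), in STR/ort injured joints at 1-week, and the highest Sod3 groups have synovial sums of 3950 CPM and more.

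The genes that work beside the members were taken from 8 lists of 82 measured genes in all. Of 246 tests in each family, 9 were called higher and 4 lower at 1-day, 13 higher and 3 lower at 1-week, and 9 higher at 2-weeks. The shares of all gene tests called higher were 2.47%, 4.45% and 2.79% at these times, and those called lower 1.51%, 1.6% and 0.135%. Among the NADPH oxidase partners, 4, 5 and 4 of 33 tests were called higher at the 3 times. They comprised Nox4, which makes hydrogen peroxide constitutively, and Duoxa1, the maturation factor that Duox1 needs to leave the endoplasmic reticulum. Nox4 was called higher in all 9 injury comparisons, from 1.59-fold in STR/ort to 5.33-fold in MRL/MpJ, both at 1-week (adjusted p = 9.81e-09 for the latter, 13.3 ± 2.59 against 2.55 ± 0.0776 CPM, SD, n = 5 and 4). In STR/ort the Nox4 call was lost at 1-week without uninjured replicate 3 (log2 0.47). At 1-day it was lost without injured replicate 5 (log2 0.53, adjusted p = 0.0595) and with only these groups fitted (adjusted p = 0.0696). The rise of Nox4 at 1-week was smaller in STR/ort than in MRL/MpJ by 1.74 on the log2 scale. Duoxa1 was called in 4 of 9, among them C57BL/6 at 1-week (3.26-fold) and STR/ort at 2-weeks (2.29-fold). With single libraries left out, the C57BL/6 log2 change ran from 1.44 to 2.32, against 1.71 with all. The Duoxa1 call in STR/ort at 1-week was lost without uninjured replicate 3 (adjusted p = 0.0637) and with only these groups fitted (adjusted p = 0.0509). Of 63 glutathione gene tests at each time, 1 was called higher at 1-day, 7 at 1-week and 4 at 2-weeks, and 1 lower at 1-day and 1 at 1-week. These counts are to be read against the same shares of all gene tests, and at 1-day 1 higher call of 63 lay under its background. The higher ones were led by Gpx7 and Gpx8, peroxidases of the endoplasmic reticulum. Gpx7 rose 2.66-fold in C57BL/6 at 1-day (adjusted p = 2.8e-09) and 2.21-fold in STR/ort at 2-weeks (adjusted p = 7.42e-09). In the NRF2 list, Maff, a small partner of NRF2, was called higher in MRL/MpJ at 1-day (1.64-fold).

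The question of susceptibility was asked by comparing strains at the same time and joint. At 0-day, before any injury, 7 tests of members were called higher and 2 lower of 30, against 8.6% and 6.23% of all gene tests. In uninjured contralateral joints 20 were higher and 14 lower of 90 (background 8.67% and 6.49%), and in injured joints 20 higher and 10 lower of 90 (background 9.1% and 7.98%). The direction is that of STR/ort against the other 2 strains, and of C57BL/6 against MRL/MpJ. The higher calls in STR/ort fell on Duox1, Sod3 and Akr1b8, and on Sod2 at 0-day. The lower ones fell on Hmox1, Gclc, Nqo1, Cybb, Slc7a11 and, after 0-day, Sod2.

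Duox1 was called higher in STR/ort than in MRL/MpJ and in C57BL/6 at every time and in every joint, 14 of 14 comparisons. With RUVg the 0-day difference from C57BL/6 did not pass, at a log2 difference of 1.09 with 1 factor (adjusted p = 0.0999) and 1.13 with 2 (adjusted p = 0.522), where the value without factors was 1.19. The difference was widest in uninjured joints at 1-week, where STR/ort had 2.63, 6.08, 7.04 and 7.37 CPM. There MRL/MpJ had 0.408 to 1.13 CPM and C57BL/6 0.346 to 1.05 CPM. No library of the other strains reached the lowest STR/ort value, and the differences were 7.76-fold and 9.94-fold (adjusted p = 1.57e-07 and 1e-08). Tissue markers differed in the same joints without overlap. The summed level of synovial fibroblast markers was 6260 to 18900 CPM in STR/ort and at most 1410 in the other strains, that of cartilage markers 4310 to 5680 against at most 2760, and that of bone markers 11100 to 16200 against at most 9620. Most of the synovial sum is Prg4 and most of the bone sum Col1a1. The part of these tissues in the Duox1 difference was not tested. The smallest difference was from C57BL/6 in injured joints at 1-day (1.80-fold, adjusted p = 0.0126), where 1 C57BL/6 library at 3.22 CPM overlapped. Without STR/ort injured replicate 5 that adjusted p was 0.0561, and with these groups fitted alone 0.0556. Between C57BL/6 and MRL/MpJ, Duox1 was called in injured joints at 1-day (2.25-fold), and that call was lost without the same C57BL/6 library (adjusted p = 0.0792). Duoxa1 was called higher in STR/ort than in MRL/MpJ in 7 of 7 comparisons and than in C57BL/6 in 6 of 7, by 4.52-fold (adjusted p = 0.00103) and 2.46-fold (adjusted p = 0.00984) at 0-day.

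Sod3 was called higher in STR/ort than in MRL/MpJ in 7 of 7 comparisons and than in C57BL/6 in 5 of 7. At 0-day MRL/MpJ stood alone at 39.8, 47, 55.6 and 60.6 CPM. C57BL/6 had 90.6, 93.1, 115 and 147 CPM and STR/ort 112, 125, 126 and 174 CPM, groups that overlapped (log2 difference 0.23). C57BL/6 was 2.25-fold above MRL/MpJ (adjusted p = 1.74e-05), a call lost under RUVg with 2 factors (log2 0.77, adjusted p = 0.434). The summed level of synovial fibroblast markers at 0-day was 1070 to 1420 CPM in MRL/MpJ, 1630 to 2780 in C57BL/6 and 2610 to 6230 in STR/ort. Its part in these Sod3 values was not tested. In uninjured joints at 1-week STR/ort (316 ± 105 CPM, SD, n = 4) was 5.82-fold above MRL/MpJ and 6.33-fold above C57BL/6 (adjusted p = 7.64e-12 and 5.43e-13). Akr1b8 showed the same 7 and 5 calls, with its widest difference also there, 4.02-fold and 3.19-fold (adjusted p = 2.7e-07 and 8.78e-07). In the same uninjured joints STR/ort had called higher levels than either other strain for 4 of 4 synovial fibroblast markers. Their summed level was 6260 to 18900 CPM in STR/ort, 1330 to 1410 in MRL/MpJ and 919 to 1370 in C57BL/6, and their part in the Sod3 and Akr1b8 values was not tested. Over the 21 group means, the Pearson correlation of Sod3 with Akr1b8 was 0.891, the highest positive value of any pair of members. The strongest negative one was -0.915, between Duox1 and Gclc. The group means span both batches, and at 2-weeks those of Sod3 ran from 25.4 to 134 CPM, so the values are descriptions.

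Hmox1 differed in the other direction. At 0-day STR/ort had 33.9, 39, 43.4 and 51.3 CPM. MRL/MpJ had 99, 101, 122 and 142 CPM, and C57BL/6 had 78.2, 84.5, 107 and 107 CPM. The STR/ort joints lay below all others, with log2 differences of -1.47 from MRL/MpJ (adjusted p = 1.29e-07) and -1.20 from C57BL/6 (adjusted p = 2.12e-06). The same held in uninjured joints at 1-day (2.55-fold and 1.81-fold lower, adjusted p = 1.19e-11 and 2.64e-07) and at 2-weeks (2.20-fold and 1.65-fold lower, adjusted p = 6.27e-06 and 0.0026). Under RUVg with 2 factors the 2-weeks difference from C57BL/6 was -0.55 on the log2 scale, against -0.72 without factors, and was not called (adjusted p = 0.0608). In injured joints at 2-weeks Hmox1 was also called lower in STR/ort than in MRL/MpJ (1.88-fold, adjusted p = 6.77e-05). Against C57BL/6 the difference there was -0.54 (adjusted p = 0.0198), under 1.5-fold. At 1-week the uninjured STR/ort joints had log2 differences of -0.21 from MRL/MpJ and 0.03 from C57BL/6. Without replicate 1 these were -0.77 (adjusted p = 8.24e-05) and -0.52 (adjusted p = 0.00299, under 1.5-fold). Of 5 erythroid markers, 5 had a called lower level in STR/ort than in MRL/MpJ at 0-day and 3 than in C57BL/6. Their summed level there was 1800 to 1900 CPM in STR/ort, 3930 to 4870 CPM in MRL/MpJ and 3510 to 4940 CPM in C57BL/6. That sum was lower in STR/ort without overlap at every time and joint, also where Hmox1 was not called. In injured joints at 1-day it was 1480 to 2080, 3700 to 4150 and 2810 to 4430 CPM in the same order, and mean Hmox1 110, 140 and 102 CPM. In injured joints at 1-week it was 737 to 2250, 3170 to 3970 and 4180 to 5730 CPM, and mean Hmox1 110, 113 and 98.6 CPM. Of 30 tests of 10 haem and iron genes at 0-day, 1 was called higher and 3 lower, shares to be read against 8.6% and 6.23% of all gene tests. Cd163, the scavenger receptor for haemoglobin, was 1.28 lower on the log2 scale in STR/ort than in C57BL/6 (adjusted p = 7.83e-09) and 0.64 lower than in MRL/MpJ (adjusted p = 3.91e-05). It also made the higher call, C57BL/6 above MRL/MpJ by 0.64 (adjusted p = 2.12e-05). Blvrb, which reduces biliverdin, was lower in STR/ort than in MRL/MpJ by 0.92 (adjusted p = 1.4e-06). Whether the erythroid difference takes part in that of Hmox1 was not tested.

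Sod2 changed place between times. At 0-day STR/ort had 197, 200, 256 and 281 CPM, all above the C57BL/6 joints (112, 135, 149 and 151 CPM), a 1.66-fold difference (adjusted p = 0.000134). In uninjured joints at 1-week STR/ort had 94.6, 111, 123 and 126 CPM, all below the C57BL/6 joints (140, 153, 173, 195 and 230 CPM) and those of MRL/MpJ (186, 211, 213 and 255 CPM). Its level there was 1.55-fold lower than in C57BL/6 and 1.88-fold lower than in MRL/MpJ (adjusted p = 0.000527 and 9.86e-06). The call against C57BL/6 was lost, at under 1.5-fold, without uninjured C57BL/6 replicate 2 (log2 -0.52) or without uninjured STR/ort replicate 1 (log2 -0.56). These 1-week differences changed sign under RUVg, the adjustment by factors of housekeeping genes, with 2 factors (log2 0.19 and 0.15, adjusted p = 0.472 and 0.751), and the first also with 1 factor (log2 0.13, adjusted p = 0.641). The 0-day call was also lost under RUVg, at a log2 difference of 0.43 with 1 factor and 0.20 with 2. Fast muscle markers moved with Sod2, 6 of 6 called higher in STR/ort than in C57BL/6 at 0-day and, in uninjured joints at 1-week, 6 of 6 lower than in MRL/MpJ and 2 of 6 lower than in C57BL/6. The part of muscle in the Sod2 values was not tested.

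**Figure D4:**
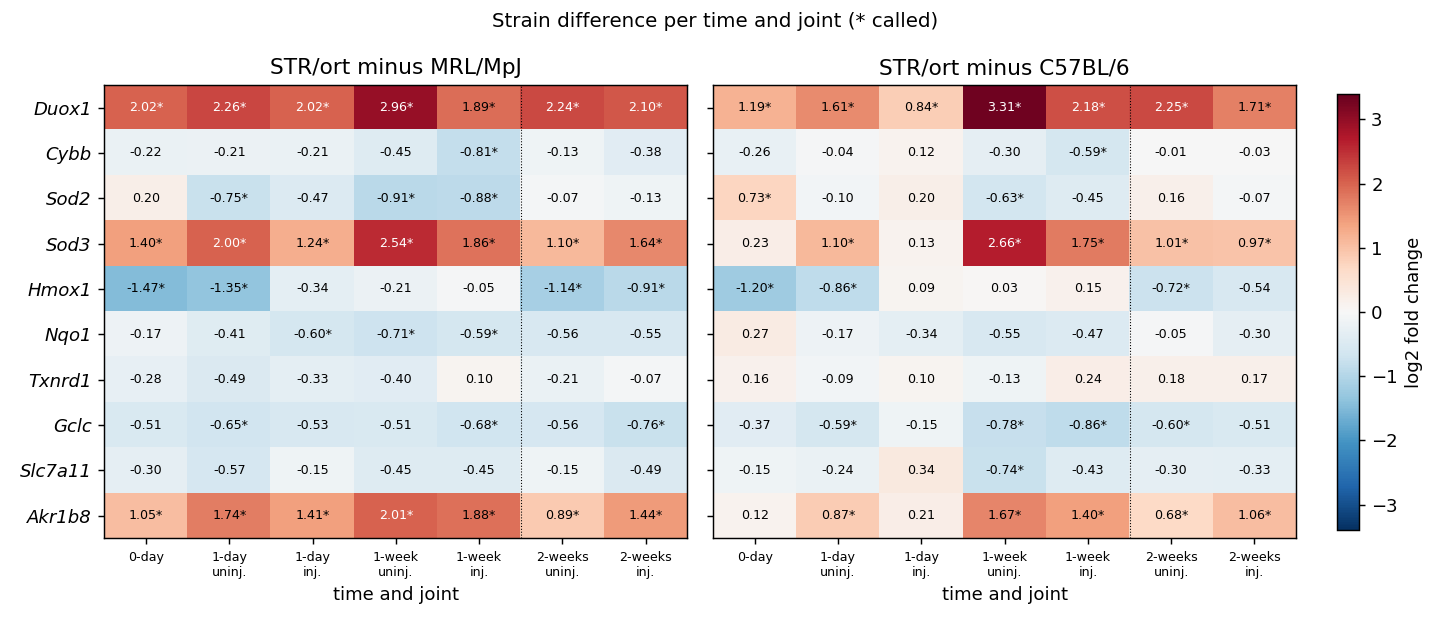
Log2 fold change of each member in STR/ort against MRL/MpJ (left) and C57BL/6 (right), by time and joint, with red for higher and blue for lower in STR/ort and an asterisk where both thresholds were passed. Duox1 carries an asterisk in all 14 cells. Hmox1 is blue at 0-day, in uninjured joints at 1-day and 2-weeks and in injured joints at 2-weeks, with an asterisk there against MRL/MpJ, and near 0 in injured joints at 1-day and 1-week against C57BL/6.

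Of the other members, Gclc was called lower in STR/ort in 3 comparisons with MRL/MpJ and 4 with C57BL/6, by at most 1.82-fold (injured joints at 1-week against C57BL/6, adjusted p = 1.22e-07). That against C57BL/6 in uninjured joints at 1-day lay at the fold threshold (log2 -0.59) and was lost without any one of 6 of those 10 libraries. That at 2-weeks (log2 -0.60) was lost under housekeeping scaling (-0.52), RUVg with 1 and 2 factors (-0.54 and -0.33) and filterByExpr (-0.57), and without any one of 5 libraries. The summed level of erythroid markers was lower in STR/ort than in either other strain without overlap at every time and joint, also where Gclc was not called. In injured joints at 1-week it was 737 to 2250 CPM in STR/ort, 4180 to 5730 in C57BL/6 and 3170 to 3970 in MRL/MpJ, and its part in the Gclc values was not tested. Nqo1 was called lower than in MRL/MpJ in 3 comparisons, by 1.63-fold in uninjured joints at 1-week (adjusted p = 0.000399), and all 3 were lost under RUVg with 1 factor. That in injured joints at 1-week lay at the fold threshold (log2 -0.59). It was also lost with RLE factors, under DESeq2 and with these groups fitted alone (each log2 -0.57), and without some single libraries (-0.47 to -0.57). That in injured joints at 1-day (log2 -0.60) was also lost without some single libraries (-0.44 to -0.58). Cybb was called lower in the injured STR/ort joints at 1-week than in MRL/MpJ (1.75-fold, adjusted p = 2.29e-07) and C57BL/6 (1.51-fold, adjusted p = 3.3e-05). The latter call lay at the fold threshold and was lost with RLE factors (log2 -0.57), under DESeq2 (log2 -0.57) and without any one of 5 single libraries (log2 -0.51 to -0.56). Those joints had 379, 416, 524, 572 and 582 CPM, below every MRL/MpJ joint (715 to 957 CPM) and C57BL/6 joint (654 to 800 CPM). Of 8 marrow neutrophil markers, a cell type in which Cybb is abundant, 5 were also called lower there than in MRL/MpJ, and against C57BL/6 the median log2 difference of the 8 was -0.34. Their summed level was 7350 to 10700 CPM in those joints, 12200 to 16200 in MRL/MpJ and 11100 to 12400 in C57BL/6. The summed level of myeloid markers was 2600 to 3090 CPM in STR/ort, 2710 to 3320 in MRL/MpJ and 2720 to 3020 in C57BL/6. The part of these cells in the Cybb values was not tested. Slc7a11 was called lower in STR/ort than in C57BL/6 in uninjured joints at 1-week (1.67-fold, adjusted p = 8.04e-05). Txnrd1 was called in 0 of all 48 comparisons by edgeR and in 0 by DESeq2. By edgeR 26 had an unadjusted p under 0.05, and 19 an adjusted p under 0.05 with a change under 1.5-fold.

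**Figure D5:**
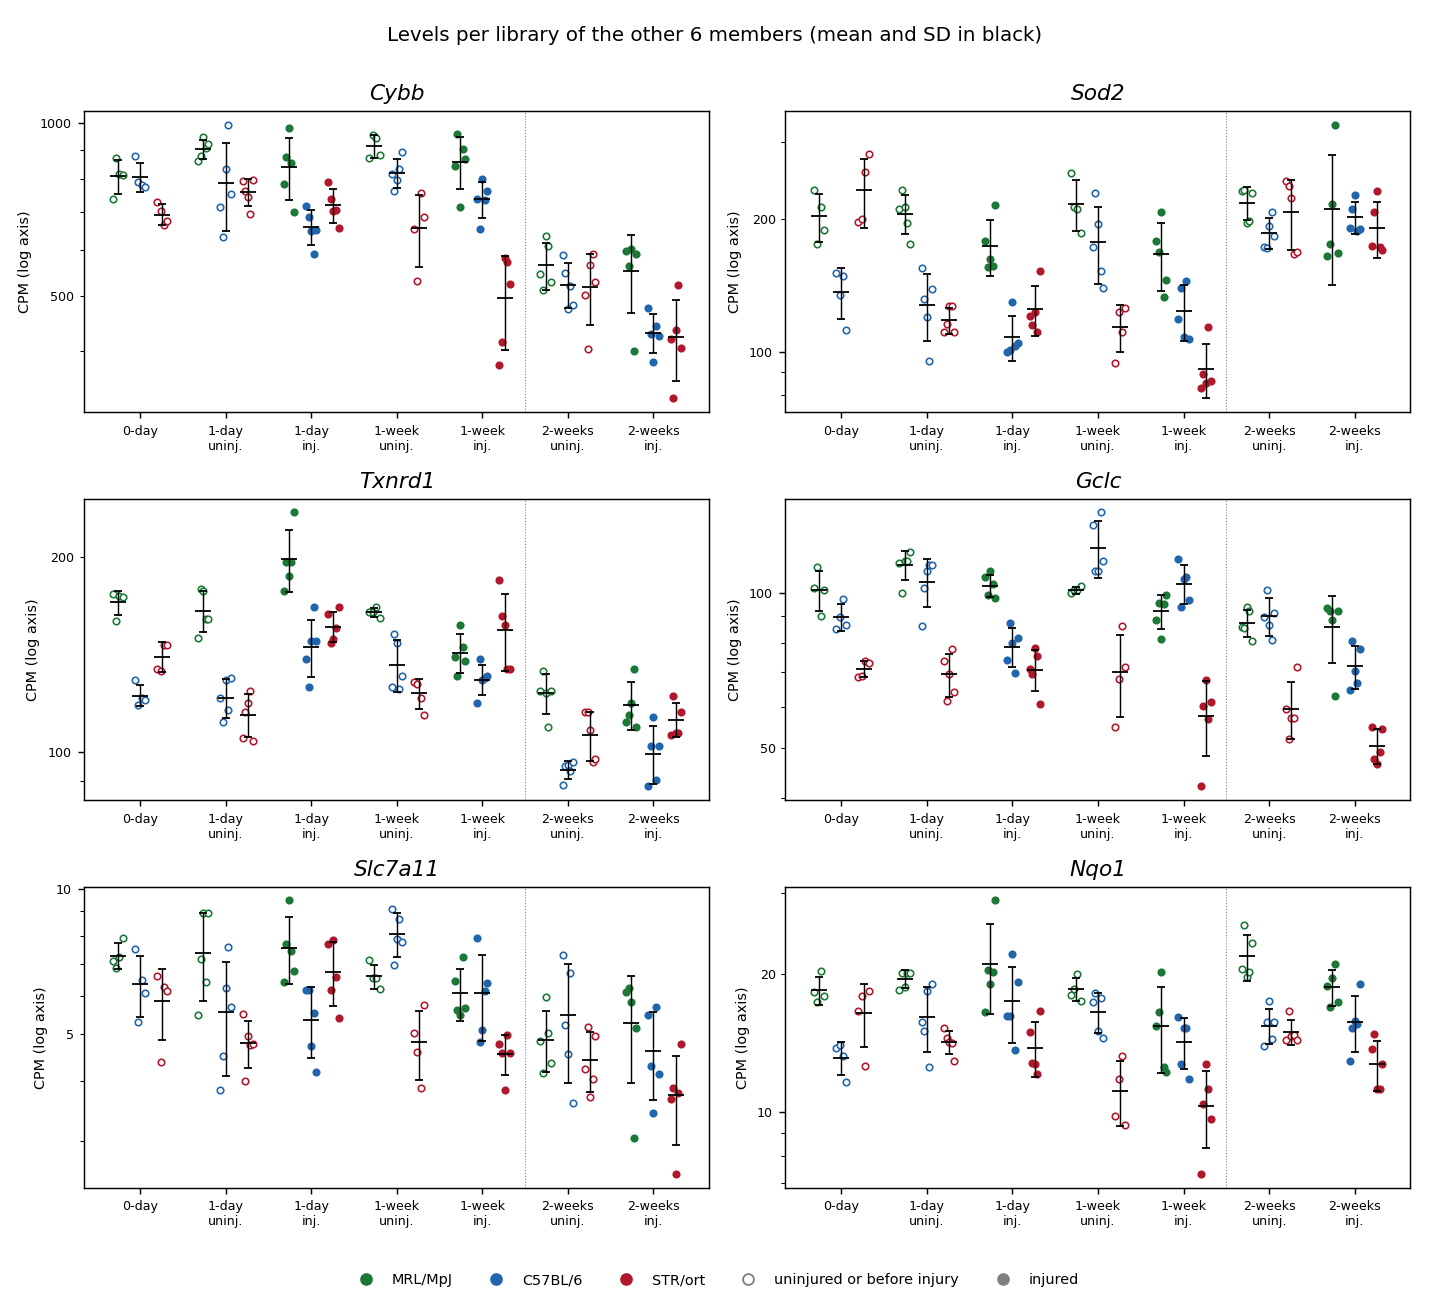
Levels of Cybb, Sod2, Txnrd1, Gclc, Slc7a11 and Nqo1 in each library, in CPM on a log axis, by time and joint for the 3 strains. Filled points are injured joints, open points uninjured or 0-day joints, and black bars the mean and SD of 4 or 5 libraries. Injured and uninjured points of the same strain lie close together, and Cybb in injured STR/ort joints at 1-week (379 to 582 CPM) lies below the other strains.

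Contralateral joints were compared with 0-day joints to see whether the uninjured side moved. These comparisons share their 0-day libraries, and their contralateral libraries are the controls of the injury comparisons above. As mice were injured at 10 weeks, contralateral joints also came from mice older than those at 0-day by the time since injury, and age and injury of the other knee cannot be told apart. Of 60 tests 6 were called higher and 3 lower (background 1.25% and 3.28%), 8 of them in STR/ort and 1 in C57BL/6. In STR/ort 8.89% of all genes were called at 1-day and 12.6% at 1-week, in either direction. In MRL/MpJ 0 of 20 were called by edgeR and 0 by DESeq2, with 2 at an unadjusted p under 0.05, where 0.156% of all genes were called at 1-day and 0 of 17310 at 1-week. That count is therefore no result about the members. In STR/ort, Sod2 fell from 233 ± 41.7 CPM at 0-day to 118 ± 7.86 at 1-day and 114 ± 14.2 at 1-week (SD, n = 4, 5 and 4), 2.00-fold and 2.08-fold (adjusted p = 9.43e-06 and 6.75e-06). The contralateral joints lay between 94.6 and 127 CPM and did not overlap the 0-day joints. All 6 fast muscle markers were called lower in the same comparisons, with median log2 changes of -1.08 and -1.15. Sod3 rose 1.68-fold at 1-day and 2.32-fold at 1-week (adjusted p = 0.0086 and 0.000133), and Akr1b8 1.65-fold and 1.89-fold (adjusted p = 0.031 and 0.00749). The Akr1b8 call was lost at 1-day without any one of 4 libraries (adjusted p 0.0694 to 0.103) and at 1-week without uninjured replicate 1 (adjusted p = 0.0639). Synovial fibroblast markers rose with them, 2 and 4 of 4. Duox1 rose 2.06-fold at 1-week (adjusted p = 0.0169), a call lost without uninjured replicate 1 or 2 or without 0-day replicate 2 (adjusted p 0.0574 to 0.0666). The bone marker sum in STR/ort was 7620 to 10100 CPM at 0-day and 11100 to 16200 in contralateral joints at 1-week, and its part in the Duox1 change was not tested. The Hmox1 call at 1-week (2.21-fold, adjusted p = 0.00223) rested on replicate 1 at 185 CPM, without which the log2 change was 0.57, under 1.5-fold (adjusted p = 0.0195). In C57BL/6, Sod3 fell 2.23-fold at 1-week, from 112 ± 26.2 to 50.3 ± 10.4 CPM (SD, n = 4 and 5, adjusted p = 9.9e-05), and 4 of 4 synovial fibroblast markers were called lower. Under RUVg 4 of these comparisons were called with 1 factor and 4 with 2, and 5 of the STR/ort calls above were lost with either. The Sod2 change at 1-day was then -0.51 on the log2 scale with each (adjusted p = 0.26 and 0.254), smaller than the 2.00-fold fall above. The values of the other 4 stayed above 1.5-fold but did not pass. For Sod3 at 1-day the log2 change was 1.05 and 1.04 (adjusted p = 0.235 and 0.225). For Akr1b8 it was 0.80 and 0.79 at 1-day (adjusted p = 0.528 and 0.511) and 0.98 and 0.97 at 1-week (adjusted p = 0.117 and 0.133). For Hmox1 at 1-week it was 0.99 and 1.03 (adjusted p = 0.16 and 0.148).

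In injured joints, 1-week was compared with 1-day within batch 1, and 2 of 30 tests were called higher and 2 lower (background 4.37% and 2.58%). Beside the rise of Duox1 in MRL/MpJ and STR/ort, Sod3 in C57BL/6 fell 2.50-fold, from 363 ± 109 to 146 ± 12 CPM (SD, n = 5 each, adjusted p = 4e-06). Every 1-day joint (228 to 528 CPM) lay above every 1-week joint (134 to 163 CPM). Akr1b8 fell 1.78-fold there (adjusted p = 0.00138). The summed level of synovial fibroblast markers was 3080 to 4380 CPM in these joints at 1-day and 2600 to 2950 at 1-week, lower without overlap. Bone markers, mostly Col1a1, had sums in injured STR/ort joints, where Duox1 rose, of 9130 to 12900 CPM at 1-day and 13900 to 25000 at 1-week. These also did not overlap. The part of these tissues was not tested. In STR/ort neither changed past the threshold, with log2 differences of 0.32 for Sod3 (adjusted p = 0.208) and 0.37 for Akr1b8 (adjusted p = 0.145). Duoxa1 rose with Duox1, 4.67-fold in MRL/MpJ and 4.96-fold in STR/ort.

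The genes whose pattern over the 21 group means was most like that of a member were looked up among 14417 genes with at least 1 CPM. These are Pearson correlations of mean log2 CPM over groups of both batches, given as a description. For Duox1 the closest gene was its partner Duoxa1 (r = 0.969). Sod3 was closest to Vim, which encodes vimentin of mesenchymal cells (r = 0.984), and to Cfb (r = 0.98). Sod2 was closest to Atp5b, Pdhx and Sdhb (r = 0.979, 0.978 and 0.978), which encode mitochondrial proteins. Akr1b8 was closest to Nsg1 and Emp1 (r = 0.983 and 0.979), Cybb to Cep128 (r = 0.979) and Gclc to Slfn14 (r = 0.973). Hmox1 had the weakest closest gene, Klhl17 at r = 0.843.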

How the data were processed

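RNA from 100 mouse knee joints was sequenced from poly(A) TruSeq libraries. Per the submitters' processing notes and the study's methods, the authors aligned reads with TopHat2 2.0.11 to mm10 and deposited raw counts per RefSeq gene from featureCounts. Of 17313 rows, 3 repeated entries were dropped, and all 17310 genes had at least 2 counts in at least 5 libraries. Groups came from the labels. Counts were fitted with edgeR 4.0.16 in R 4.3.3 (TMM scaling, glmQLFit and glmQLFTest), per time point for injury and strain and per strain within batch 1 for time. There were 48 comparisons in 9 families, with Benjamini-Hochberg adjustment over all genes in each. The scripts were tested on simulated data. Exon lengths came from the GENCODE basic annotation and promoters from RefSeq GRCm38.p6. The members and lists were chosen with earlier results of these data known. All members are reported, and of the listed partner genes at most 3 called genes per list, family and direction with the smallest adjusted p. Alternatives were RLE factors, scaling by 25 housekeeping genes, RUVg with 1 or 2 factors, filterByExpr, no filter, a replicate block, fits of the compared groups alone, DESeq2 1.42.0 and leaving out each library. At 2-weeks the label descriptions tie both knees to 1 animal, so the replicate numbers pair there. Those pairs deviated together in C57BL/6 (r 0.133 to 0.215) and STR/ort (0.139 to 0.262) but not in MRL/MpJ (-0.161 to 0.0755). At 1-week all STR/ort pairs deviated together (0.102 to 0.231), but there and in the other sets the knees shared only a number.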

Additional observations from a re-analysis of the deposited data

Results flagged for a closer look

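Within groups, 13 of 210 sets of 4 or 5 libraries held a library far from the others by Dixon's test, which chance gives for about 1 in 20. For Hmox1 these were uninjured STR/ort replicate 1 at 1-week (185 CPM), uninjured MRL/MpJ replicate 4 at 2-weeks (160 CPM) and injured STR/ort replicate 5 at 2-weeks (113 CPM). The first of these decided the 1-week Hmox1 values of STR/ort. For Sod2 they were injured C57BL/6 replicate 3 (130 CPM) and injured STR/ort replicate 5 (153 CPM) at 1-day, and injured STR/ort replicate 4 at 1-week (114 CPM). For Gclc they were uninjured MRL/MpJ replicate 2 at 1-day (99.9 CPM) and injured MRL/MpJ replicate 4 at 2-weeks (63.1 CPM). The latter library also stood apart for Cybb (401 CPM) and had the lowest correlation of any library with the mean of its group (0.9866). Single values were flagged for Cybb in C57BL/6 replicate 1 at 0-day (877 CPM), Txnrd1 in MRL/MpJ replicate 2 at 0-day (159 CPM), Nqo1 in uninjured STR/ort replicate 2 at 2-weeks (16.6 CPM) and Duox1 in injured C57BL/6 replicate 4 at 1-day (3.22 CPM).

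The injury effect differed between strains by the test of the interaction for Hmox1 at 1-day, by 1.01 between STR/ort and MRL/MpJ and by 0.95 between STR/ort and C57BL/6. It also did for Sod3 at 1-day, by -0.97 between STR/ort and C57BL/6, all on the log2 scale.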

How the results depend on the processing

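The 113 member calls kept their direction and stayed called 110 times under RLE factors, 111 under housekeeping scaling, 112 under filterByExpr, 109 with the compared groups fitted alone and 111 under DESeq2. Under RUVg 95 did with 1 factor and 92 with 2. All 113 did without a filter, but the filter removed no gene, so that fit repeats the main one and tests nothing. The counts of calls moved past 1.5 times for strain at 0-day, from 9 to 5 with 2 factors, and for contralateral joints against 0-day, from 9 to 4 with 1 factor and 4 with 2. The cause was not tested. The Sod2 differences of STR/ort at 1-week changed sign with 2 factors, to 0.15 (uninjured against MRL/MpJ), 0.19 (uninjured against C57BL/6) and 0.14 (injured against MRL/MpJ), and the second also with 1 factor, to 0.13. So did Mgst2 (from 0.64 to -0.23 with 1 factor and -0.24 with 2) and Chac1 (from -1.42 to 0.24 and 0.23) in contralateral STR/ort joints at 1-day.

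With single libraries left out, the injury calls numbered 7 to 8 at 1-day, 7 to 9 at 1-week and 8 to 9 at 2-weeks. There were 9 to 9 for strain at 0-day, 32 to 36 in uninjured and 28 to 32 in injured joints. The range was 6 to 10 for contralateral joints, 4 to 6 for injured joints over time, and 3 to 5 for strain by injury, where 5 came without uninjured STR/ort replicate 3 at 1-week, which added Sod3 at 1-week. With the replicate number as a block, the injury calls were 7, 9 and 9, the strain by injury calls 4, and all 27 member calls tested were kept. The calls gained were Duox1 after injury in STR/ort at 1-week (log2 0.68) and the Sod3 interaction of STR/ort with C57BL/6 at 1-week (-0.92). The knees of both strains share only a number at that time. The MRL/MpJ and STR/ort numbers at 1-week, each with 5 injured and 4 uninjured libraries, may not mark the same animals. Groups of 4 or 5 joints and the low counts of Duox1 limit what could be called.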

Other observations

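Glutathione reductase (Gsr), which returns oxidised glutathione to its reduced form, separated C57BL/6 from both other strains. At 0-day it had 265 ± 16.9 CPM in C57BL/6, 99.5 ± 4.78 CPM in MRL/MpJ and 93.3 ± 5.37 CPM in STR/ort (SD, n = 4 each), and the C57BL/6 joints overlapped neither other strain. Gsr was 2.75-fold higher in C57BL/6 than in MRL/MpJ (adjusted p = 2.17e-11) and 2.92-fold higher than in STR/ort (adjusted p = 7.42e-12) by edgeR. Bone marker sums at 0-day were 11100 to 16100 CPM in C57BL/6, 6590 to 8810 in MRL/MpJ and 7620 to 10100 in STR/ort. Fast muscle sums were 29300 to 47200, 63200 to 76900 and 67500 to 77200 CPM. In uninjured joints at 1-week both sums of C57BL/6 overlapped those of MRL/MpJ. The part of these tissues in the Gsr values was not tested. Gsr was called higher in C57BL/6 than in MRL/MpJ in 7 of 7 comparisons and than in STR/ort in 7 of 7, the smallest difference being 0.80 on the log2 scale, from MRL/MpJ in injured joints at 1-day. After injury Gsr was not called in any strain, its largest log2 difference being -0.32, in C57BL/6 at 1-day (adjusted p = 2.46e-05).

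Gsta4, a glutathione transferase for lipid aldehydes, differed the other way, being called lower in C57BL/6 than in MRL/MpJ in 7 of 7 comparisons (log2 -1.14 at 0-day, adjusted p = 1.93e-06). Gpx3, the secreted glutathione peroxidase, was called higher in C57BL/6 than in MRL/MpJ at 0-day (log2 1.14, adjusted p = 3.77e-09).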
